A study of Mus musculus with 12 samples.

Results

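Firre and Dxz4 are non-coding loci of the mouse X chromosome that shape the folding of the inactive X. The peaks described here are those rows of the YY1 and OCT4 allelic tables that lie in, or within 20 kb of, the RefSeq gene body of Firre or of 4933407K13Rik, the gene whose body holds Dxz4. The rule gave 18 of the 1217 peaks with allelic values, 10 of 211 for YY1 and 8 of 1006 for OCT4. Firre held 5 YY1 and 5 OCT4 peaks, and Dxz4 held 5 YY1 and 3 OCT4 peaks. After 6 days of Xist the share of YY1 on the inactive X differed from that of day 0 by −0.0458 to 0.0650 at these 10 peaks, and none passed the test, whereas 89 of the other 201 YY1 peaks fell.

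The line was iXist-ChrX-Cast, female hybrid mouse embryonic stem cells of strain Dom/129S x Cast, in which the castaneus X carries Xist under a TetOn promoter. ChIP-seq, the sequencing of DNA recovered with an antibody against a bound protein, was done for YY1 and OCT4 on untreated cells (day 0) and on cells that had received doxycycline at 1 µg/ml for 6 days (day 6), with 2 libraries for each factor and day. Only this line was used, and both factors were precipitated from the same extracts. Both days carry the same inducible allele, and day and doxycycline cannot be told apart. The 4 input libraries of the series have no allelic values. The allelic ratio of a peak is the number of fragments assigned to the castaneus chromosome, the future inactive X (Xi), divided by those assigned to Xi or to the active X (Xa), so 0.5 means equal signal from both. A lower ratio can come from less factor on Xi or more on Xa, and from all cells or from some of them, and these cannot be told apart in a bulk ratio. No fragment numbers accompany the ratios, so the depth behind each value is unknown. No label says that the libraries came from separate cultures, and p-values therefore measure only the spread between these libraries.

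Firre is transcribed into a long non-coding RNA that contains many copies of a local repeat, and its body binds CTCF, the zinc finger protein that anchors chromatin loops. Dxz4 is a macrosatellite, a long tandem array of one large repeat unit, and lies at the boundary between the large domains into which the inactive X is folded. YY1 is a zinc finger transcription factor that binds both promoters and distal elements, and OCT4 is a transcription factor of pluripotency that recognises an octamer motif. In these data Firre occupies chrX:50563120-50635321 of mm10 (GRCm38.p6) and 4933407K13Rik occupies chrX:75725458-75764699. Both are long non-coding RNA genes read from the minus strand, with bodies of 72202 and 39242 bp. Peaks are numbered here in the order of the plus strand within each locus and factor.

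Some members of a locus shared sequence with each other, whereas Firre YY1 peak 5 and the 5 Firre OCT4 peaks shared no word of 31 bases with other members bound by the same factor. The YY1 core was searched as AANATGGC on both strands, and occurred in 8 of the 10 YY1 peaks (80.0%), in 76.6% of the other YY1 peaks and in 19.4% of chromosome X windows of 809 bp, the median length of the 10. At Firre, all 5 YY1 peaks held at least 1 core, and 3 families of related surroundings recurred among 4 of them. Each core is given with 10 bases on either side, read in the direction of the motif from the RefSeq genome of GRCm38.p6, with the core in capitals. The first family had a core followed by a shared gattac:
Firre YY1 peak 2 (chrX:50580645-50580672, plus strand): agaatgaaggAAGATGGCggccgattac
Firre YY1 peak 3 (chrX:50607892-50607919, plus strand): gtaatggcagAAGATGGCgaccgattac
Firre YY1 peak 4 (chrX:50611936-50611963, plus strand): acaatggaagAAGATGGCggctgattac
In the second family the 10 bases before the core were the same in all 3 peaks:
Firre YY1 peak 1 (chrX:50577481-50577508, plus strand): tccctgcttcAAAATGGCtgaggagatg
Firre YY1 peak 3 (chrX:50608266-50608293, plus strand): tccctgcttcAAAATGGCtgaggagaag
Firre YY1 peak 4 (chrX:50612306-50612333, plus strand): tccctgcttcAAAATGGCtgaggagaaa
The third family lay on the other strand:
Firre YY1 peak 1 (chrX:50576963-50576990, minus strand): aaaaacgccaAAGATGGCtgtcctaact
Firre YY1 peak 4 (chrX:50611789-50611816, minus strand): aaaaaagtctAAGATGGCtgtcctacct

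Over windows of 100 bases centred on each core, 7 of the 45 pairs of Firre cores matched at 65 to 88 bases and the other 38 pairs at 17 to 38 bases. The 7 were the pairs within these families. Firre YY1 peak 5 held 2 cores, and neither belonged to a family. Firre YY1 peak 4 held the most cores, 3, with 1 from each family.

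At Dxz4 the same core stood in a single context, AACATGGC followed by ggcc. It was found in Dxz4 YY1 peaks 1, 3 and 5, and peak 5 held it at 2 places:
Dxz4 YY1 peak 1 (chrX:75733775-75733802, minus strand): agcctctctaAACATGGCggccgacccg
Dxz4 YY1 peak 3 (chrX:75749433-75749460, minus strand): tgcctctctgAACATGGCggccgacccg
Dxz4 YY1 peak 5, first core (chrX:75758157-75758184, minus strand): cgcctctctgAACATGGCggccgacccg
Dxz4 YY1 peak 5, second core (chrX:75759152-75759179, minus strand): cgcctctctgAACATGGCggccaacccg
All 6 pairs of these Dxz4 cores matched at 94 to 98 of 100 bases, against 23 to 41 bases for the 40 pairs of a Firre and a Dxz4 core. Dxz4 YY1 peaks 2 and 4 held no exact core. Each nevertheless held the same stretch with a changed core, shown with the same 8 positions in capitals:
Dxz4 YY1 peak 2 (chrX:75738793-75738820, minus strand): cgcctctcttAACATGGTggccgacccg
Dxz4 YY1 peak 4 (chrX:75754279-75754306, minus strand): cgcctctcttAACATGGTggccgacccg
Counted from 1 at the 5′ end of the 28 bases of Dxz4 YY1 peak 3, both copies differed from it by T1C, G10T and C18T, and C18T changes the last base of the core. Peak 2 held this stretch at 2 places with no difference between them, and at 1 further place with 5 differences from peak 3. These are reference sequences, and they say nothing of the castaneus bases or of which copies were bound.

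The repeats bear on how reads could be placed. Of all words of 31 bases in a peak, 70.3% to 96.2% occurred again on chromosome X in the 5 Dxz4 YY1 peaks, and 0 to 34.5% in the 5 Firre YY1 peaks. Over the other YY1 peaks of the table outside both neighbourhoods the median was 2.37%, and 37.4% of those peaks had over 50% recurring words. Of the OCT4 peaks, those at Firre had 0 to 0.694% and those at Dxz4 had 48.3% to 95.04%. The part of read placement in the ratios was not tested. The YY1 median change was −0.0272 over the 5 Dxz4 peaks, all with over 50% recurring words. It was −0.0172 over the 5 Firre peaks, of which none had. Over the YY1 peaks that are not members it was −0.0814 where over 50% of words recurred (23 of 74 fell). It was −0.137 where up to 50% did (66 of 127 fell). For OCT4 these 2 medians were −0.0937 (20 of 85 fell) and −0.156 (331 of 913 fell). The allelic tables also do not hold every peak of these loci. All 5 listed OCT4 regions within 20 kb of Firre had allelic values. At Dxz4 3 of the 6 did (50.0%), near the 47.0% of the 2139 on the chromosome. A region called in input, chrX:75733655-75734910, lies wholly within Dxz4 YY1 peak 1. Without that peak the median change of the other 9 YY1 members was −0.0172.

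**Figure D1:**
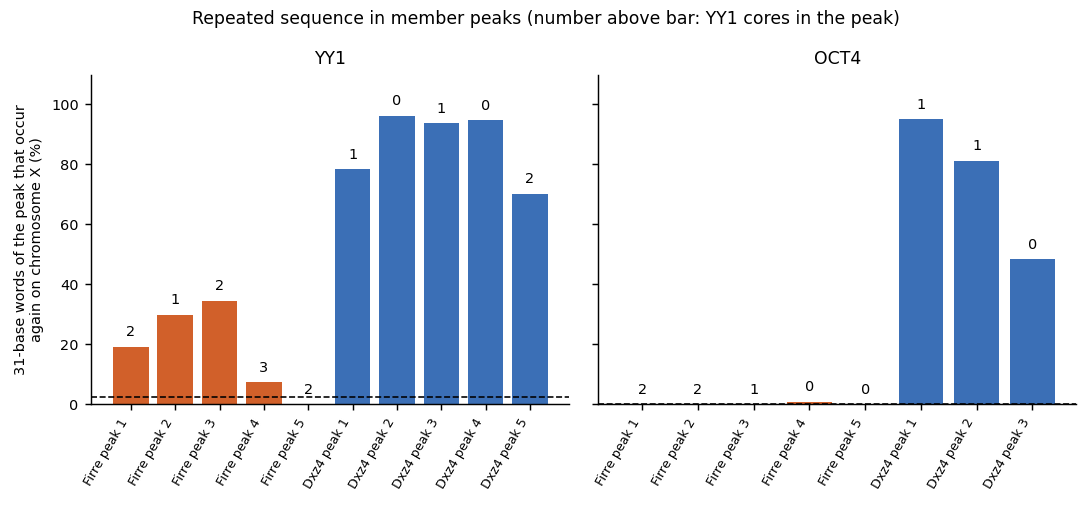
Percent of the 31-base words of each member peak that occur again on chromosome X, for YY1 (left) and OCT4 (right); orange bars are Firre peaks, blue bars Dxz4 peaks, the number above each bar is the count of YY1 cores, and the dashed line is the median of the other peaks outside both neighbourhoods (2.37% for YY1, 0 for OCT4). Every Dxz4 YY1 peak lies between 70.3% and 96.2%, above every Firre peak.

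The first comparison asked whether YY1 left Xi at these loci by day 6. It did not do so detectably at any of the 10 YY1 peaks. In the test of day 6 against day 0 with limma, adjusted by Benjamini-Hochberg over all 211 YY1 peaks, 0 of 10 members fell and 0 rose at an adjusted p under 0.05, and 0 had an unadjusted p under 0.05, where 117 of all 211 YY1 peaks were lower and 1 was higher at that p. Of all YY1 peaks 42.2% fell (89 of 211) and 0.474% rose (1 of 211). The median change was −0.0222 over the 10 members and −0.0987 over all YY1 peaks, and all 10 members lay above the latter value. Their changes ranked between 5th and 58th of 211 from the most positive. The median share of the day 0 ratio left at day 6 was 94.0% for the members and 78.2% for all YY1 peaks.

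**Figure D2:**
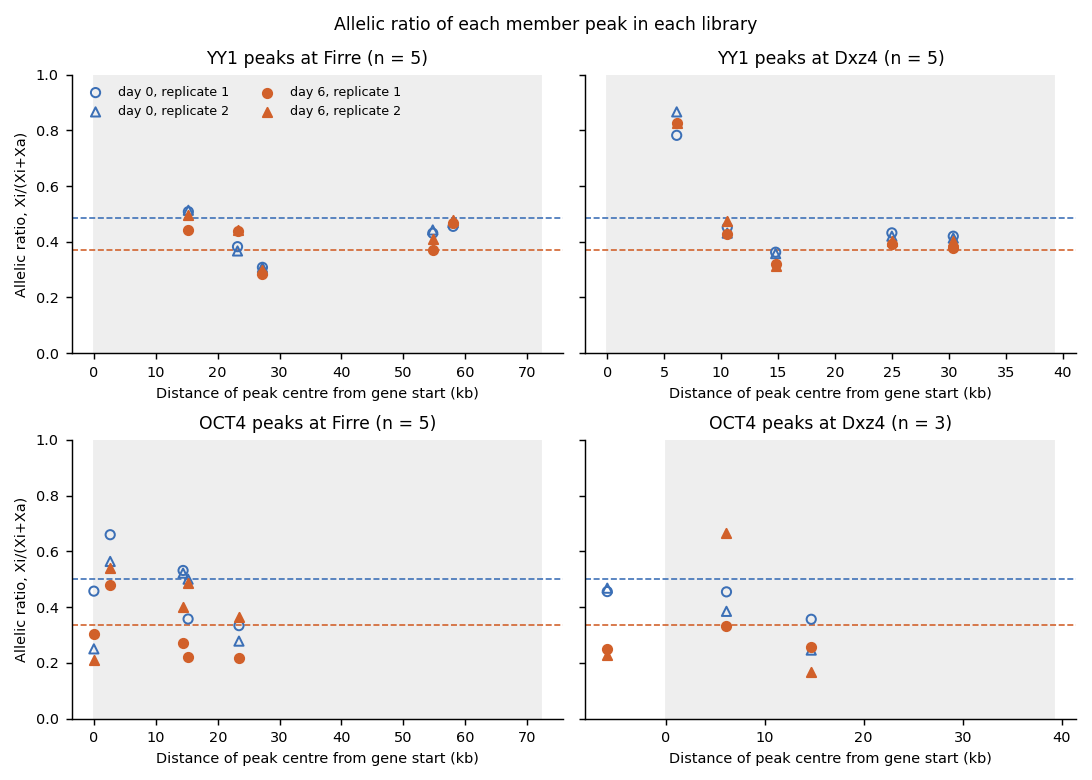
Allelic ratio of each member peak (y axis) against the distance of its centre from the start of the gene in kb (x axis, positive into the gene; grey shading marks the gene body), for YY1 (top) and OCT4 (bottom) at Firre (left) and Dxz4 (right). Open symbols are day 0 and filled symbols day 6 libraries, circles replicate 1 and triangles replicate 2; dashed lines mark the mean of the 2 library medians over all peaks on day 0 (blue) and day 6 (orange).

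Firre YY1 peak 4 (chrX:50611765-50612452), in an intron of Firre, had the most positive change of the YY1 members. Its ratios were 0.382 and 0.367 at day 0, against 0.437 and 0.442 at day 6. Both day 6 libraries were thus above both day 0 libraries, as at 4.27% of all YY1 peaks. The change was 0.0650 ± 0.0312 (SE, n = 2 libraries a day; limma, adjusted p = 0.140), with a 95% interval from −0.0121 to 0.142. The interval therefore includes no change, but excludes the median decrease of the table. The intervals of Firre YY1 peaks 2 and 5 and of Dxz4 YY1 peaks 1, 2 and 3 include that decrease, with lower limits from −0.128 to −0.104. Those of the other YY1 members exclude it.

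Firre YY1 peak 1 (chrX:50576923-50577618), also intronic, lies farthest from the Firre start, 58.0 kb into the gene. It read 0.455 and 0.468 at day 0, against 0.468 and 0.478 at day 6, and the days overlapped, with a change of 0.0113 ± 0.0312 (limma, adjusted p = 0.807). Firre YY1 peak 3 (chrX:50607733-50608432), intronic, was the lowest YY1 member at both days. It gave 0.308 and 0.308 at day 0, against 0.284 and 0.298 at day 6, a change of −0.0172 ± 0.0311 (limma, adjusted p = 0.685). Its day 0 libraries differed by 0.000484, and both day 6 libraries lay below them.

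The other Firre YY1 peaks had the most negative YY1 changes of the locus. Firre YY1 peak 2 (chrX:50580098-50581016), which overlaps an exon of Firre, read 0.431 and 0.442 at day 0, against 0.370 and 0.411 at day 6, a change of −0.0458 ± 0.0333 (limma, adjusted p = 0.307). Firre YY1 peak 5 (chrX:50619819-50620287), intronic, read 0.508 and 0.513 at day 0, against 0.441 and 0.497 at day 6, a change of −0.0412 ± 0.0350 (limma, adjusted p = 0.377). At both peaks the days did not overlap, and replicate 2 of day 6 lay closer to day 0 than replicate 1 did. Without replicate 1 of day 6 the changes were −0.0253 at peak 2 and −0.0135 at peak 5, and without replicate 2 of day 6 they were −0.0663 and −0.0690.

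All 5 Dxz4 YY1 peaks were intronic in 4933407K13Rik. Dxz4 YY1 peak 5 (chrX:75757855-75759347), the nearest to the gene start, stood apart from the others in level. Its ratios were 0.782 and 0.866 at day 0, against 0.826 and 0.824 at day 6, so most of its allele-assigned signal came from Xi on both days. Its mean at day 0 was the second highest of 211 YY1 peaks and its mean at day 6 the highest, while its change was 0.00148 ± 0.0396 (limma, adjusted p = 0.971). Its day 0 mean of 0.824 lies above the 0.8 that the study's methods give as the upper limit of the filter.

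The next Dxz4 peak inward had overlapping days. Dxz4 YY1 peak 4 (chrX:75753890-75754435) read 0.452 and 0.431 at day 0, against 0.428 and 0.475 at day 6, and its day 0 values lay between those of day 6 (change 0.0101 ± 0.0344; limma, adjusted p = 0.850). At the remaining Dxz4 YY1 peaks, both day 6 libraries lay below both day 0 libraries. Dxz4 YY1 peak 3 (chrX:75749159-75750659) read 0.363 and 0.357 at day 0, against 0.319 and 0.313 at day 6, a change of −0.0445 ± 0.0309 (limma, adjusted p = 0.287). It had the largest decrease of the Dxz4 YY1 peaks although its replicates differed by no more than 0.00597 on either day.

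Dxz4 YY1 peak 2 (chrX:75738473-75740933), at 2461 bp the longest member, read 0.432 and 0.420 at day 0, against 0.393 and 0.404 at day 6, a change of −0.0274 ± 0.0312 (limma, adjusted p = 0.519). Dxz4 YY1 peak 1 (chrX:75733440-75735179), which overlaps the input region, read 0.420 and 0.413 at day 0, against 0.376 and 0.403 at day 6, a change of −0.0272 ± 0.0319 (limma, adjusted p = 0.528). The pair had nearly the same levels and changes, and share 717 words of 31 bases. Over the 10 YY1 members, both day 6 libraries lay below both day 0 libraries at 6 peaks, where 72% of all YY1 peaks did so, and above them at 1.

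The replicate error of these YY1 peaks was small. Replicates of one day differed by a median of 0.0118 at day 0 and 0.0123 at day 6 over the 10 members, against 0.0413 and 0.0379 over all YY1 peaks. The highest gap of a member was 0.0841, between the day 0 libraries of Dxz4 YY1 peak 5. For the members limma gave standard errors from 0.0309 to 0.0396. In limma the error of each peak is drawn toward a value shared by the table, and the lowest standard error of any YY1 peak was 0.0309. The standard errors, intervals and p-values of the members thus also rest on the spread at other YY1 peaks, not on their own replicates alone. Leaving out replicate 1 of day 6 moved the median change of the members from −0.0222 to −0.0118, and without the other libraries it lay between −0.0284 and −0.0227.

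A second fit, chosen after the data had been seen, asked whether the members kept pace with the chromosome. Each library was centred on its own median over all YY1 peaks before the test. In this fit 7 of the 10 YY1 members had a higher centred ratio at day 6 with an unadjusted limma p under 0.05. Of all YY1 peaks 15.6% did (33 of 211), and of the 201 that are not members 26 did. The same held for 3 of the 6 YY1 peaks within 20 kb of the escape genes listed below, so it was not particular to these loci. The 7 members were Firre YY1 peaks 1, 3 and 4 and Dxz4 YY1 peaks 1, 2, 4 and 5. These Dxz4 peaks share repeated sequence, up to 90.7% of the 31-base words of Dxz4 YY1 peak 4 with peak 2, so the 7 may not be independent. No YY1 peak of the table, member or other, passed an adjusted p of 0.05 (limma). The lowest adjusted p of a member was 0.0740, at Firre YY1 peak 4, with a centred change of 0.180, and the highest among the 7 was 0.149, at Dxz4 YY1 peak 1.

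**Figure D3:**
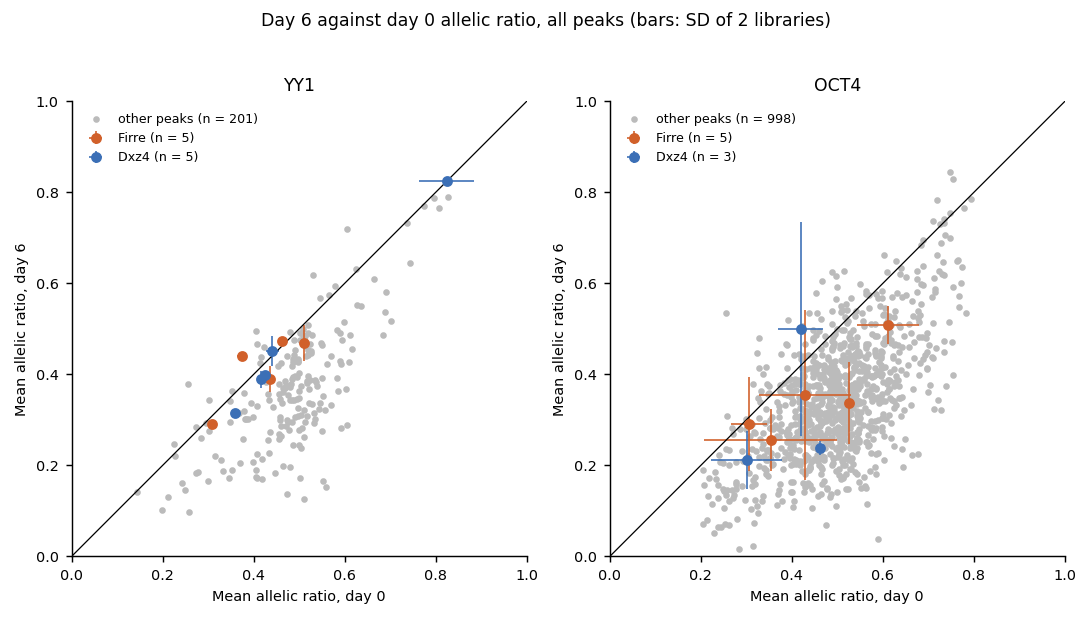
Mean allelic ratio at day 6 (y axis) against day 0 (x axis) for every YY1 peak (left) and OCT4 peak (right); grey points are other peaks, orange points Firre and blue points Dxz4 members, bars are the SD of 2 libraries, and the line marks equality. The 10 YY1 members lie close to the line, with changes from −0.0458 to 0.0650, while the OCT4 members spread below and above it, from −0.222 to 0.0804.

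The same question was asked of OCT4. Of the 8 OCT4 members, 1 fell and 0 rose in limma with adjustment over all 1006 OCT4 peaks, and 2 were lower at an unadjusted p under 0.05, where 504 of all 1006 OCT4 peaks were. Of all OCT4 peaks 35% fell (352 of 1006) and 0.0994% rose (1 of 1006). The median change was −0.0931 over the members and −0.149 over all OCT4 peaks, and 6 of the 8 lay above the latter. Replicates of the OCT4 members differed by a median of 0.0829 at day 0 and 0.112 at day 6, and their standard errors ran from 0.0532 to 0.104. Their centred ratios gave 0 of 8 members with an unadjusted limma p under 0.05, where 100 of all 1006 OCT4 peaks were higher and 71 lower at that p. The median change was −0.0441 without replicate 1 of day 0 and −0.147 without replicate 2 of day 0.

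The OCT4 member that fell was also the only one outside a gene body. Dxz4 OCT4 peak 3 (chrX:75770222-75771017) is intergenic and lies 5523 bp upstream of the 4933407K13Rik start. It read 0.456 and 0.468 at day 0, against 0.250 and 0.228 at day 6, with both day 6 libraries far below both day 0 libraries. The change was −0.222 ± 0.0532 (limma, adjusted p = 0.0245), and 51.8% of its day 0 ratio remained. The adjusted p was 0.0909 without replicate 1 of day 0 and 0.108 without replicate 2 of day 0, with changes of −0.229 and −0.216. In those fits 1 and 0 of all 1006 OCT4 peaks were called. This peak shared no word of 31 bases with the other Dxz4 OCT4 peaks.

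Inside the 4933407K13Rik body the OCT4 replicates differed more. Dxz4 OCT4 peak 1 (chrX:75749362-75750641), intronic, read 0.356 and 0.246 at day 0, against 0.257 and 0.167 at day 6, a change of −0.0890 ± 0.0648 (limma, adjusted p = 0.287). One day 6 library lay above one day 0 library, so the days overlapped, and the change ran from −0.144 to −0.0337 with 1 library left out. Dxz4 OCT4 peak 2 (chrX:75758007-75759133), intronic, read 0.455 and 0.385 at day 0, against 0.333 and 0.667 at day 6, a change of 0.0804 ± 0.104 (limma, adjusted p = 0.544). Its day 6 libraries lay on either side of both day 0 libraries and differed by 0.333, the highest gap of any member. Without replicate 2 of day 6 the change was −0.0862, and without replicate 1 of day 6 it was 0.247 with an adjusted p of 0.0346 in limma.

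At Firre all 5 OCT4 peaks had a lower mean at day 6, and none passed the adjusted test. Firre OCT4 peak 3 (chrX:50620722-50621134), intronic, came nearest to it. It read 0.531 and 0.522 at day 0, against 0.273 and 0.400 at day 6, a change of −0.190 ± 0.0626 (limma, adjusted p = 0.0512), with no overlap between days. Without replicate 2 of day 6 its change was −0.254 with an adjusted p of 0.0289 in limma, and without replicate 1 of day 6 it was −0.126 with an adjusted p of 0.1765. The adjusted p was 0.164 without replicate 1 and 0.160 without replicate 2 of day 0. Firre OCT4 peak 4 (chrX:50632481-50632942), intronic and 2379 bp inside the gene, had the highest OCT4 level of the locus. It read 0.660 and 0.564 at day 0, against 0.480 and 0.538 at day 6, a change of −0.102 ± 0.0605 (limma, adjusted p = 0.200), again with no overlap between days. Without replicate 1 of day 0 the change was −0.0544, and without replicate 2 of day 0 it was −0.1503. These 2 peaks were the only members that held an octamer, searched as ATGCAAAT or ATGCTAAT on both strands and shown here in capitals with 10 bases on either side:
Firre OCT4 peak 3 (chrX:50620837-50620864, minus strand): ttttttttttATGCAAATggctctggac
Firre OCT4 peak 4 (chrX:50632691-50632718, plus strand): tcccagggaaATGCAAATttaggctcct
The octamer thus occurred in 2 of 8 OCT4 members (25.0%), in 20.1% of the other OCT4 peaks and in 6.59% of chromosome X windows of 437 bp. The YY1 core occurred in 5 of the 8 OCT4 members (62.5%), in 10.0% of the other OCT4 peaks and in 10.9% of these windows. At Firre OCT4 peaks 1 and 2 and Dxz4 OCT4 peaks 1 and 2 these are cores already counted in overlapping YY1 peaks, so the counts of the factors are not independent. The 2 Dxz4 peaks are also 1280 and 1127 bp long, and the part of length was not tested. Both day 6 libraries lay below both day 0 libraries at 3 of the 8 OCT4 members, against 73% of all OCT4 peaks. They lay above at 0 of the 8, against 1.39%.

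Firre OCT4 peak 5 (chrX:50635211-50635489) spans the start of Firre and is the only member at a gene start. It read 0.457 and 0.250 at day 0, against 0.304 and 0.208 at day 6, a change of −0.0972 ± 0.0800 (limma, adjusted p = 0.341), and the days overlapped. The RefSeq promoter window of Firre, 250 bases before to 50 after the start (chrX:50635272-50635571 of GRCm38.p6, minus strand), is shown because this peak covers 218 of its bases, printed in capitals:
Firre promoter: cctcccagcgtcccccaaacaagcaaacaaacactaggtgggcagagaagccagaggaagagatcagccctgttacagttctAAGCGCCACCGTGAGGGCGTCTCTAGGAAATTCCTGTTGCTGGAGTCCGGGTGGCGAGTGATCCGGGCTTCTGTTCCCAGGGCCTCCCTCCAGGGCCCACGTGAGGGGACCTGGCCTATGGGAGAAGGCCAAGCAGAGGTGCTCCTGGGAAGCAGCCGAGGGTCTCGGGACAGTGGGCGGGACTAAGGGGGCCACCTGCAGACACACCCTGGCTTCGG
The window is 62.7% G and C and holds 12 CpG dinucleotides. It held no octamer, no YY1 core and no CTCF core, which occur in 2.62%, 6.05% and 0.557% of 32851 promoters. No YY1 member lay at the start of either gene. The 4933407K13Rik promoter window held none of the 3 motifs either, and no member peak of either factor.

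The remaining Firre OCT4 peaks overlap YY1 peaks. Firre OCT4 peak 1 (chrX:50611750-50612040), intronic, read 0.333 and 0.278 at day 0, against 0.217 and 0.364 at day 6, a change of −0.0150 ± 0.0669 (limma, adjusted p = 0.865). Firre OCT4 peak 2 (chrX:50619951-50620285), intronic, read 0.357 and 0.500 at day 0, against 0.222 and 0.486 at day 6, a change of −0.0742 ± 0.0950 (limma, adjusted p = 0.541). At both peaks the spread within a day exceeded the change, and their sign depended on which library was left out. Firre OCT4 peak 1 held 2 of the 3 YY1 cores of the YY1 peak it overlaps, Firre OCT4 peak 2 held both cores of its YY1 peak, and neither held an octamer.

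**Figure D4:**
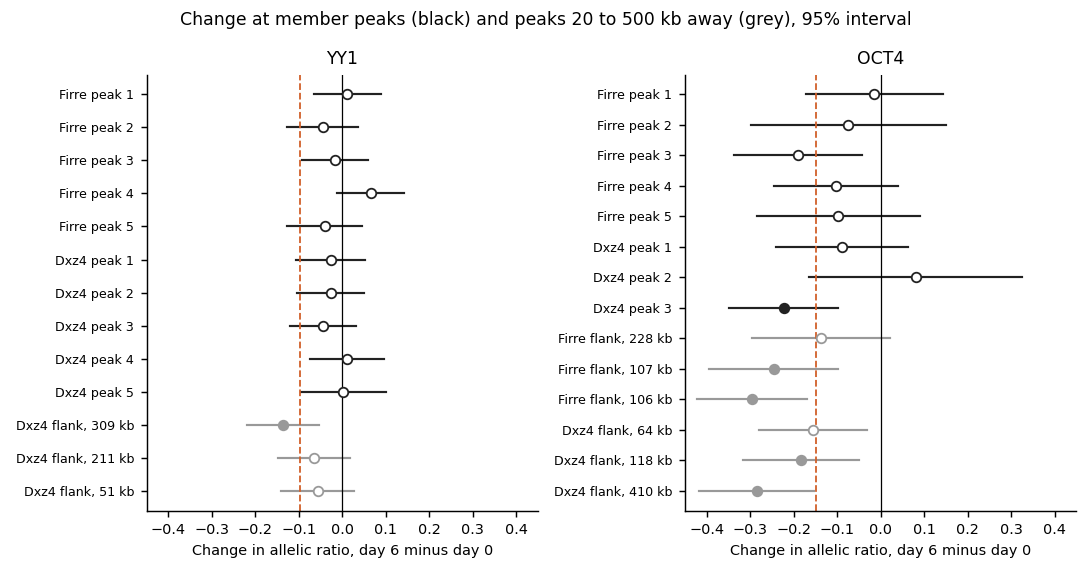
Day 6 minus day 0 allelic ratio (x axis) with its 95% limma interval for each member (black) and each peak 20 to 500 kb away (grey), for YY1 (left) and OCT4 (right). Filled points have an adjusted p under 0.05, and the dashed line is the median change of the factor's table (−0.0987 for YY1, −0.149 for OCT4). Of the members only Dxz4 OCT4 peak 3 is filled, beside 1 of 3 YY1 and 4 of 6 OCT4 neighbours.

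Where YY1 and OCT4 peaks overlapped, the changes of the factors could be compared directly. The members held 4 of the 69 overlapping pairs on the chromosome. In a limma test of the factor by day interaction adjusted over the 69 pairs, 0% of pairs were called, with 6 pairs at an unadjusted p under 0.05 and no member pair among them. The test treated the libraries as independent, although both factors came from the same extracts, and no pairing by extract was modelled. At Firre YY1 peak 4 and Firre OCT4 peak 1 the YY1 change exceeded the OCT4 change by 0.0800 (95% interval −0.103 to 0.263; limma, adjusted p = 0.689). The difference was 0.0330 at Firre YY1 peak 5 and Firre OCT4 peak 2 (−0.247 to 0.313; limma, adjusted p = 0.920). At Dxz4 it was 0.0445 at YY1 peak 3 and OCT4 peak 1 (−0.131 to 0.220; limma, adjusted p = 0.767), and −0.0789 at YY1 peak 5 and OCT4 peak 2 (−0.392 to 0.234; limma, adjusted p = 0.767). Each interval includes 0, so a difference between the factors was not detectable at these sites with 2 libraries a day. Only the first pair kept its sign without each library in turn, with a difference that ran from 0.00693 to 0.153. The level at the last pair differed between factors, with YY1 at 0.782 to 0.866 and OCT4 at 0.333 to 0.667 over the 4 libraries of each, and this difference in level was not tested.

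The next comparison set the loci against their surroundings, the peaks of the same factor 20 to 500 kb from the gene bodies. No YY1 peak lay at this distance from Firre, and 3 lay on the lower-coordinate side of Dxz4. The nearest, chrX:75673952-75674492 at 51.0 kb, read 0.536 and 0.512 at day 0, against 0.488 and 0.447 at day 6, a change of −0.0565 ± 0.0339 (limma, adjusted p = 0.225). The only neighbour that fell was chrX:75416188-75416947, in exons of Brcc3, Cmc4 and Mtcp1. It read 0.479 and 0.521 at day 0, against 0.353 and 0.374 at day 6 (change −0.137 ± 0.0338; limma, adjusted p = 0.0248). This neighbour and chrX:75514173-75514664, in an exon of Vbp1, each lay over a gene start. The YY1 members lay 5352 to 42709 bp from the nearest gene start. The part of gene starts in the comparison with neighbours was not tested. The median change was −0.0662 over these 3 neighbours, against −0.0272 over the 5 Dxz4 YY1 peaks. The median ratio of the 5 Dxz4 peaks lay below that of the neighbours in each library, by 0.0471 and 0.0915 at day 0 and by 0.00730 and 0.0313 at day 6.

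For OCT4, 4 of the 6 neighbours fell (limma, adjusted p under 0.05) and 0 rose. The nearest to Firre, chrX:50457141-50457493, intergenic at 106 kb on the lower-coordinate side, had the largest decrease of the 6. It read 0.635 and 0.625 at day 0, against 0.353 and 0.315 at day 6, a change of −0.296 ± 0.0538 (limma, adjusted p = 0.0163). The nearest to Dxz4, chrX:75829135-75830438 in an intron of Pls3, read 0.382 and 0.387 at day 0, against 0.234 and 0.226 at day 6, a change of −0.155 ± 0.0528 (limma, adjusted p = 0.0559). At all 6 neighbours both day 6 libraries lay below both day 0 libraries, against 3 of the 8 members. The median change was −0.246 for the 3 neighbours and −0.0972 for the 5 members at Firre, and −0.183 for the 3 neighbours and −0.0890 for the 3 members at Dxz4. Over both loci the OCT4 member median change exceeded the neighbour median change by 0.121. The median ratio of members minus that of neighbours, taken in each library, had a spread between libraries of 0.128. That spread is of ratios in single libraries, so it does not measure the error of a difference of median changes. For YY1, only Dxz4 had neighbours, and there the member median exceeded theirs by 0.0390. This is less than the range of the 3 neighbours themselves, from −0.137 to −0.0565. The 5 Dxz4 YY1 members, from −0.0445 to 0.0101, all lay above these neighbours. With the members of both loci the YY1 difference was 0.0440. The spread between libraries, taken on ratios as for OCT4 and with the same limit, was 0.0300. With so few neighbours no test over peaks was made.

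Other X-linked loci gave a scale for these values, with the same 20 kb window. Within 20 kb of genes that escape X inactivation (Kdm5c, Kdm6a, Ddx3x, Eif2s3x, Pbdc1, Utp14a, Mid1 and Slc25a5), 0 of 6 YY1 peaks were called in limma, with 0 at an unadjusted p under 0.05, and the median change was −0.0178. The corresponding 20 OCT4 peaks had 4 that fell and a median change of −0.0899. Around the X inactivation centre genes Xist, Tsix, Jpx and Ftx, 2 of 3 YY1 peaks and 10 of 15 OCT4 peaks fell, with median changes of −0.116 and −0.206. The member medians, −0.0222 for YY1 and −0.0931 for OCT4, lay nearer to those of the escape genes than to those of the inactivation centre, a description that was not tested.

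CTCF itself was not measured in these libraries. An exact CTCF core, a consensus named here without its letters, occurred in 0 of 18 members, in 0.995% of the other YY1 peaks and in 0.701% of the other OCT4 peaks. With 1 mismatch allowed it occurred in 4 of 10 YY1 members and in 8.46% of the other YY1 peaks. For OCT4 the same search gave 2 of 8 members and 8.32% of the other peaks. All 6 of these peaks lie at Dxz4, namely YY1 peaks 1, 2, 3 and 5 and OCT4 peaks 1 and 2. The 2 OCT4 peaks overlap YY1 peaks 3 and 5, so the matches are not independent. The 4 YY1 peaks are also 1493 to 2461 bp long, against a median of 469 bp for the other YY1 peaks. They share repeated sequence, and the parts of length and of the repeat in these shares were not tested.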

How the data were processed

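The authors computed the deposited ratios, fractions between 0 and 1, for each peak and library from fragments assigned to Xi or Xa. Following the methods of the study, alignment was to mm10 with strain-specific bases masked, duplicates were removed, alleles were sorted with SNPsplit, peaks were called with MACS2 and regions called in input were subtracted, and peaks with few allelic fragments or a biased day 0 ratio were dropped. In the submitters' processing notes are deepTools 3.5.0 and Bowtie2 2.3.5.1. The filters leave out peaks without enough strain-specific positions. The placement of reads from repeats is not given in the sources. The listed OCT4 and input regions are positions pooled over libraries. The listed input regions were not all subtracted from the YY1 peaks, since a listed region lies wholly within Dxz4 YY1 peak 1. For YY1 at day 0 the factor comes from the titles, since those labels name no antibody, and the clone name in the OCT4 column names is in no label.

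Day 6 was compared with day 0 for each factor with limma 3.58.1 in R 4.3.3, two-sided, 2 libraries against 2, adjusted by Benjamini-Hochberg over every peak of the factor, and a threshold of 0.05, and the fit was tested on simulated data. Every member is named. Neighbours named are the nearest on each side and those past the threshold with the largest decrease or increase. Annotation, genome and promoters came from RefSeq GRCm38.p6. Members and lists were chosen with earlier results of these data known. Alternatives were a replicate block, a logit scale, day 0 ratios of 0.3 to 0.7, another prior, a threshold of 0.01, other windows and overlaps, and leaving out each library. Centring, leaving out the peak over an input region and leaving out repeated peaks were chosen after seeing the data. Python 3.11.15 was used.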

Additional observations from a re-analysis of the deposited data

How the results depend on the processing

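No YY1 member was called under any alternative run, but some of these alternatives called few YY1 peaks at all: of 211, 0 without replicate 2 of day 0, 0 with median-centred ratios, 16 at a threshold of 0.01 and 17 without replicate 1 of day 0. For OCT4 the number of members called was 0 at a threshold of 0.01, 0 with gene bodies only and 0 with median-centred ratios, and 0 to 2 when 1 library was left out. Of all 1006 OCT4 peaks, 0 were called at 0.01, 0 when centred, 1 without replicate 1 and 0 without replicate 2 of day 0, so the member counts under these alternatives say nothing about the members. The OCT4 call was kept under the replicate block, the logit scale, day 0 ratios of 0.3 to 0.7, the other prior and the 50 kb margin. The YY1 member minus neighbour difference, 0.0440 over both loci although all 3 neighbours lie beside Dxz4, became 0.0749 with means and 0.114 with neighbours out to 1000 kb. The number of overlapping pairs called was 0 to 2 without 1 library. Allowing 1 mismatch in the CTCF core raised the members with a match from 0 to 4 for YY1 and from 0 to 2 for OCT4. The cause of these differences was not tested, except that fewer members enter with gene bodies only.

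Over the alternatives run for single peaks, 12 of the 18 members kept the sign of their change. With 1 library left out, the change ranged from −0.0136 to 0.0337 at Dxz4 YY1 peak 4, −0.0406 to 0.0435 at Dxz4 YY1 peak 5, −0.0882 to 0.0581 at Firre OCT4 peak 1, −0.206 to 0.0579 at Firre OCT4 peak 2, −0.201 to 0.00634 at Firre OCT4 peak 5 and −0.0862 to 0.247 at Dxz4 OCT4 peak 2. The sign was kept but the size moved at Dxz4 YY1 peak 1, from −0.0404 to −0.0139, at Firre YY1 peak 1, from 0.00474 to 0.0179, and at Firre YY1 peak 3, from −0.0243 to −0.0102. On the logit scale Dxz4 YY1 peak 5 changed by −0.00255. The YY1 minus OCT4 difference ranged from −0.0992 to 0.165 at Firre YY1 peak 5, from −0.0108 to 0.0998 at Dxz4 YY1 peak 3 and from −0.246 to 0.0877 at Dxz4 YY1 peak 5. Where a day keeps 1 library, that library is assumed to vary like the other day.

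Whether libraries with the same replicate number belong together is not known. Across peaks, the gap between replicates at day 0 correlated with that at day 6 by r = 0.0315 for YY1 and −0.0217 for OCT4. These correlations cannot settle it, because an effect shared by such libraries need not appear peak by peak. With the replicate block 0 YY1 members and 1 OCT4 member were called, and the median changes were −0.0222 and −0.0931, as without it. The block called 0 of the 69 pairs.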
